A study of Mus musculus with 11 samples.

Results

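The aryl hydrocarbon receptor and 7 genes tied to it (Ahr, Arnt, Ahrr, Cyp1a1, Cyp1a2, Cyp1b1, Tiparp and Nqo1) were followed by RNA sequencing across mouse embryonic stem cells in which the CTCF protein can be degraded with auxin. They were chosen by symbol. All 8 were found among the 55228 symbols of the count table, and all 8 passed the filter on low counts that left 16420 genes to be tested. Each of the 11 libraries came from the line EN52.9.1 (CTCF-AID), in which endogenous CTCF, a zinc finger protein that organises chromatin loops, carries an auxin-inducible degron. EV cells without auxin (genotype label "wild-type", EV untreated) gave 3 libraries. EV cells with auxin, whose endogenous CTCF is depleted (EV auxin), gave 2. Auxin-treated cells with reintroduced FL CTCF (FL auxin) gave 3, and auxin-treated cells with reintroduced H373R CTCF (H373R auxin) gave 3. The auxin was indole-3-acetic acid at 500 µM in serum medium with leukemia inhibitory factor, and all groups, the untreated one included, share the same degron line. Neither auxin-treated cells without the degron nor untreated cells with a reintroduced CTCF were analysed here, so auxin itself and loss of endogenous CTCF cannot be told apart within EV cells. A gene that responds to auxin apart from CTCF would differ from EV untreated in all 3 auxin groups, and each gene is described with that pattern in mind. Endogenous CTCF is the target of auxin in all 3 groups, however. A difference shared by them therefore cannot tell auxin itself from a loss of endogenous CTCF that the reintroduced CTCF does not make good.

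AHR is a transcription factor of the bHLH-PAS family that waits in the cytoplasm with the chaperone HSP90 until a ligand binds it. It then enters the nucleus, pairs with ARNT and binds DNA at xenobiotic response elements built on the core GCGTG. Its ligands include dioxins, polycyclic hydrocarbons and many indoles derived from tryptophan, the chemical family to which auxin belongs. The cytochrome P450 genes Cyp1a1, Cyp1a2 and Cyp1b1 are its best known targets, Ahrr and Tiparp are targets that feed back to restrain it, and Nqo1, a quinone reductase gene, answers both to AHR and to the oxidative stress factor NRF2.

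Promoter sequences were available for 7 of the 8 genes (RefSeq, GRCm38.p6). The windows of Cyp1a1 and Cyp1b1 are shown because both genes were higher in every auxin library, and that of Ahrr because it was lower in every one. Nqo1 was also higher in every auxin library, but its window held no match to the core and is not shown. Ahr was also lower in every one, but no sequence was available for it. Each line gives the 250 bases before the RefSeq start site, 5′ to 3′ in the direction of the gene, with each match to the core GCGTG or its reverse complement CACGC in capitals.
Cyp1a1, chr9:57697363-57697612, plus strand: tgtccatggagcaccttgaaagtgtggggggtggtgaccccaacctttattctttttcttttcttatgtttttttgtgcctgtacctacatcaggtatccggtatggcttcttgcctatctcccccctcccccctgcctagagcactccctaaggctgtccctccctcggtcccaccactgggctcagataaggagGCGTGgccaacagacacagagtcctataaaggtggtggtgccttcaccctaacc
Cyp1b1, chr17:79715062-79715311, minus strand: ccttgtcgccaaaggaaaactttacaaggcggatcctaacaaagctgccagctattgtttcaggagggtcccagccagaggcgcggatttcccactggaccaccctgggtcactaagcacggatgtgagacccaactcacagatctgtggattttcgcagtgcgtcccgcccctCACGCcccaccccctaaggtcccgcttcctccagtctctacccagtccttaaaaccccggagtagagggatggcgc
Ahrr, chr13:74292332-74292581, minus strand: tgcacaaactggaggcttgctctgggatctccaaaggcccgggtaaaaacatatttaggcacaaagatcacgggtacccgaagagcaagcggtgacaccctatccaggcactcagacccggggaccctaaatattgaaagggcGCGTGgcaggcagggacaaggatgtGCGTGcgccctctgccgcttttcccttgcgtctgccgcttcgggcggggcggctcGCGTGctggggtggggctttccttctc

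The core, searched on both strands, was present once in each of the Cyp1a1, Cyp1b1, Tiparp and Arnt windows and 3 times in that of Ahrr. It was not found in the Cyp1a2 and Nqo1 windows. In Cyp1a1 the match starts at position -54 from the start site and in Cyp1b1 at -76, while those of Ahrr start at -107, -82 and -27. Such a short core is common: 28.2% of 32851 promoter windows of this length held it, and 43.4% of the 14979 windows of tested genes. The longer form TNGCGTG, which contains the core, occurred in the Ahrr window alone among the 7 and in 4.1% of all windows. The NRF2-type element TGACNNNGC was absent from these 250 bases in Nqo1 and was found 2 times in Arnt, against 10.2% of all windows with at least 1 match. These are matches of letters, and windows farther upstream were not searched.

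The libraries held 13465241 to 29902246 counts each. Nothing in the labels says whether replicates are separate cultures, so the p-values measure the spread between these libraries. EV untreated replicate 1 stood apart from its group, with a chi-square per degree of freedom of 15.5 and 14.8 against the other replicates, compared with 1.93 to 4.71 for every other pair within a group. Values without it are given where they matter. All 8 pluripotency markers checked, among them Pou5f1, Sox2 and Nanog, reached at least 1 TPM in every group, as the label of embryonic stem cells implies. Ctcf itself, whose protein and not transcript is the target of the degron, lay at 294 to 344 CPM in EV untreated, 359 to 364 in EV auxin, 328 to 350 in FL auxin and 306 to 330 in H373R auxin, and so gives no check of the depletion.

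Per length, the 8 transcripts fell into abundant and scarce ones. Over the 11 libraries Tiparp ranged from 66.3 to 102 TPM (TPM, a level scaled for transcript length), Arnt from 59.4 to 66.9 and Nqo1 from 32.9 to 49.4. Ahr itself was scarce at 2.93 to 4.96 TPM, a mean level that 25.3% of tested genes fell below. Cyp1a1 lay at 0.806 to 2.60 TPM, Cyp1b1 at 0.312 to 2.02, Cyp1a2 at 0.0906 to 1.07 and Ahrr at 0.120 to 0.464. Tiparp and Arnt overlapped narrowly, and each scarce gene below Ahr overlapped the next in this order widely, though Cyp1a1 and Ahrr did not overlap. Nqo1 and Ahr were each separate from their neighbours in the order. On this scale the transcript of the dimer partner far exceeded that of the receptor, and the P450 genes stood low in the tested range.

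Cyp1a1 was the member that moved most firmly. It encodes a P450 enzyme that oxidises polycyclic hydrocarbons and several indoles. The counts were 18, 19 and 17 in EV untreated replicates 1 to 3, 30 and 45 in EV auxin, 29, 21 and 31 in FL auxin and 34, 34 and 41 in H373R auxin. Scaled to library size by TMM (CPM, a level scaled for depth but not for length), these were 0.599, 0.930 and 0.624 in EV untreated, 1.71 and 1.87 in EV auxin, 1.38, 1.59 and 1.58 in FL auxin and 1.46, 1.60 and 1.58 in H373R auxin. All 8 auxin libraries lay above all 3 untreated ones, a pattern that 10.2% of tested genes also showed. Every adjusted p below comes from edgeR's quasi-likelihood F test, corrected over all tested genes by the Benjamini-Hochberg method. By that test Cyp1a1 rose 2.57-fold in EV auxin (log2 fold change 1.36 ± 0.22, SE, adjusted p 0.000410). It rose 2.15-fold in FL auxin (1.11 ± 0.21, SE, adjusted p 0.000918) and 2.21-fold in H373R auxin (1.14 ± 0.20, SE, adjusted p 0.000305). These rises stayed past the threshold without EV untreated replicate 1, at 1.23, 0.99 and 1.02 on the log2 scale.

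Cyp1b1, a related P450 that also metabolises estradiol and retinoids, was likewise higher in every auxin library, as were 10.2% of tested genes. Its levels were 0.533, 0.489 and 0.992 CPM in EV untreated (16, 10 and 27 counts) and 1.77 and 1.45 CPM in EV auxin (31 and 35 counts). In FL auxin they were 1.34, 3.27 and 2.50 CPM (28, 43 and 49 counts) and in H373R auxin 1.42, 1.75 and 1.19 CPM (33, 37 and 31 counts). FL auxin replicates 2 and 3 were the highest of all libraries, and FL auxin replicate 1 lay within the H373R range. The rise was 2.32-fold in EV auxin (log2 fold change 1.22 ± 0.38, SE, adjusted p 0.0330), 3.30-fold in FL auxin (1.72 ± 0.33, SE, adjusted p 0.000800) and 2.10-fold in H373R auxin (1.07 ± 0.34, SE, adjusted p 0.0184). The call in EV auxin was lost without EV untreated replicate 2, without EV auxin replicate 1 and without EV auxin replicate 2, with an adjusted p of up to 0.175, and the call in H373R auxin was lost without EV untreated replicate 2 or H373R auxin replicate 2, with an adjusted p of up to 0.0707. Both calls were also lost by limma in the 3 fits on log2(TPM) and at an adjusted p under 0.01, whereas the FL auxin call was kept there. The difference between H373R and FL (-0.65 ± 0.29, SE, adjusted p 0.214) did not pass.

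Cyp1a2, whose start lies close to that of Cyp1a1 on chromosome 9 in the opposite orientation and whose enzyme is best known from liver, gave too few counts to be resolved. There were 8, 1 and 14 counts in EV untreated, 10 and 13 in EV auxin, 10, 4 and 8 in FL auxin and 10, 7 and 8 in H373R auxin. In CPM the untreated libraries spread from 0.0489 to 0.514 and overlapped those of every auxin group except EV auxin (0.540 and 0.570). No comparison passed, and the interval is wide: the log2 fold change of EV auxin was 0.89 with a 95% interval from -0.14 to 1.93 (adjusted p 0.222), so that neither no change nor a rise as large as that of Cyp1a1 was resolved at this depth. Without EV untreated replicate 3 the value was 1.61 and passed (adjusted p 0.0447), and without EV untreated replicate 2, the library with 1 count, that of H373R auxin turned from 0.26 to -0.11. Only 4 libraries reached the minimum CPM of the low-count filter.

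**Figure D1:**
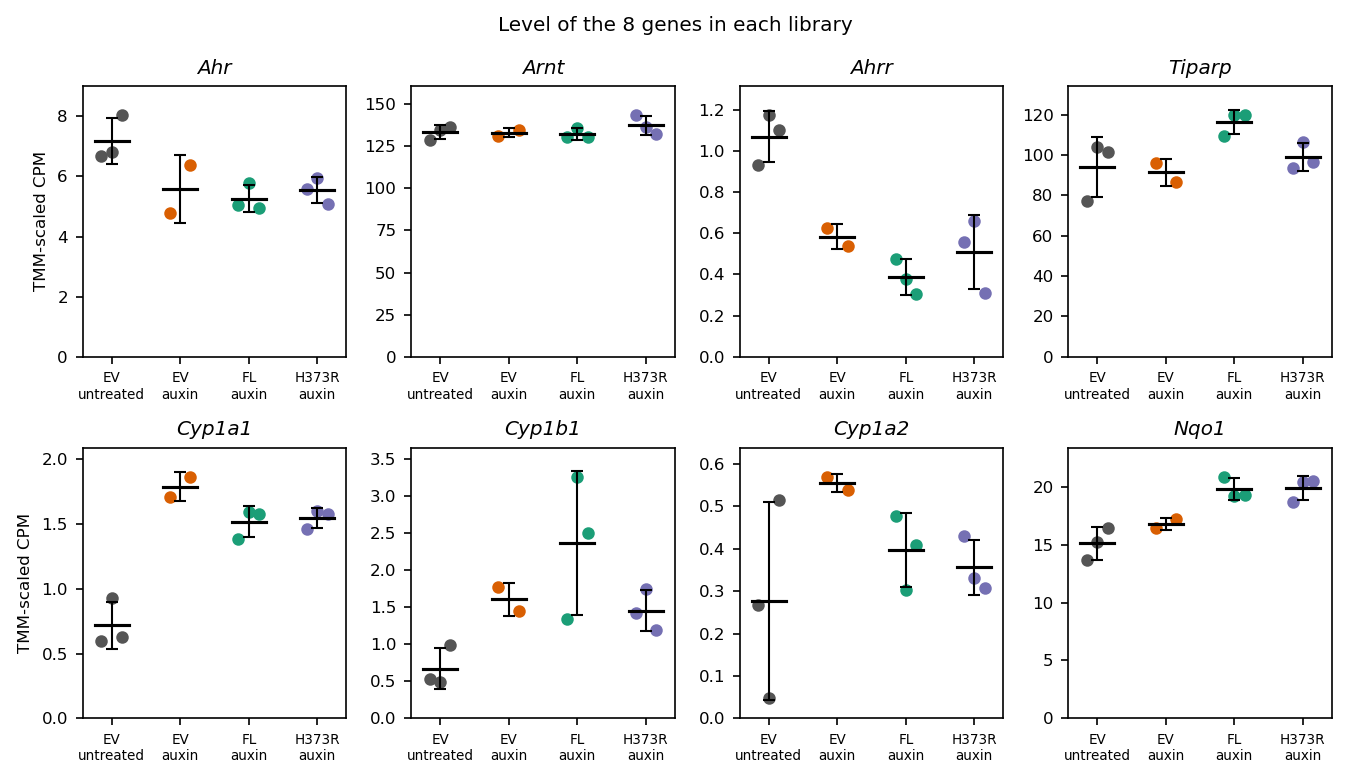
Level of each of the 8 genes in each library, in TMM-scaled CPM on axes that start at 0 and differ between panels; points are libraries, the long bar is the group mean and the error bar the SD (n = 3, n = 2 for EV auxin). All 8 auxin libraries lie above the untreated ones for Cyp1a1, Cyp1b1 and, by a narrow margin, Nqo1, and below them for Ahr and Ahrr.

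The receptor transcript itself moved the other way. Ahr stood at 6.69, 6.80 and 8.04 CPM in EV untreated, 4.79 and 6.39 in EV auxin, 5.06, 5.77 and 4.95 in FL auxin and 5.59, 5.94 and 5.08 in H373R auxin. Every auxin library was below every untreated one, as for 9.76% of tested genes, though EV auxin replicate 2 came close. Ahr fell by 0.46 ± 0.13 (SE) on the log2 scale in FL auxin (adjusted p 0.00920) and by 0.38 ± 0.12 (SE) in H373R auxin (adjusted p 0.0164). In EV auxin the log2 fold change was -0.34 ± 0.14 (SE) and did not pass (adjusted p 0.0913). Leaving out EV auxin replicate 2 took that value to -0.60, past the threshold, and leaving out EV auxin replicate 1 took it to -0.17. Without EV untreated replicate 1 it passed as well (-0.41, adjusted p 0.0224). The H373R call was lost without EV untreated replicate 3 or without H373R auxin replicate 3 (adjusted p up to 0.0897).

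Ahrr, the repressor that competes with AHR for ARNT, was the scarcest member by mean TPM, though not by CPM in EV untreated, and was also lower. It had 28, 24 and 30 counts in EV untreated, 11 and 13 in EV auxin, 10, 5 and 6 in FL auxin and 13, 14 and 8 in H373R auxin, which is 0.932 to 1.17 CPM against 0.306 to 0.660 CPM over the 8 auxin libraries. All 8 auxin libraries lay below all 3 untreated ones, a pattern that 9.76% of tested genes also showed, while the auxin groups overlapped one another. Ahrr fell by 1.42 ± 0.31 (SE) on the log2 scale in FL auxin, to 37.2% of the untreated level (adjusted p 0.00196), and by 1.08 ± 0.27 (SE) in H373R auxin, to 47.4% (adjusted p 0.00416). In EV auxin the log2 fold change of -0.87 ± 0.31 (SE) narrowly missed (adjusted p 0.0564). That last value passed without EV untreated replicate 1 (-0.98, adjusted p 0.0283) and also without H373R auxin replicate 3.

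Arnt, the partner shared by AHR and the hypoxia factors, was flat at 129 to 136 CPM in EV untreated and 130 to 143 CPM over the auxin libraries. Its log2 fold changes were between -0.01 and 0.04 in the 3 comparisons with EV untreated, and their 95% intervals reached at most from -0.12 to 0.14. None passed, although H373R auxin passed at 0.17 once trends with GC content and length had been removed.

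Tiparp, an AHR target whose enzyme attaches ADP-ribose to AHR and dampens it, had another pattern. Its CPM was 77.0, 104 and 101 in EV untreated, 96.1 and 86.5 in EV auxin, 109, 120 and 120 in FL auxin and 93.7, 107 and 96.4 in H373R auxin. The FL libraries were the 3 highest, and EV untreated replicate 1 was the lowest. In FL auxin Tiparp rose 1.24-fold over EV untreated (log2 fold change 0.31 ± 0.092, SE, adjusted p 0.0169), while the values were -0.04 ± 0.10 (SE, adjusted p 0.825) in EV auxin and 0.07 ± 0.092 (SE, adjusted p 0.547) in H373R auxin. It also differed between FL auxin and EV auxin, by 0.35 ± 0.10 (SE, adjusted p 0.0246). Against EV untreated these values turned on EV untreated replicate 1: without it they were 0.18 in FL auxin (adjusted p 0.0144), -0.19 in EV auxin (adjusted p 0.0272, now past the threshold) and -0.06 in H373R auxin. With trends of GC content and length removed, H373R auxin was past the threshold too (0.21, adjusted p 0.00137), and FL auxin stood at 0.37. The FL call was lost without FL auxin replicate 2 or replicate 3 (adjusted p up to 0.0599). A pseudogene on the other strand, 4931440P22Rik, overlaps 970 bases at the start of Tiparp. It had 18 to 56 counts per library, against 1577 to 2761 for Tiparp. The pseudogene too was called higher in FL auxin (log2 fold change 0.69, adjusted p 0.0286). Its values in EV auxin (0.58, adjusted p 0.126) and H373R auxin (0.50, adjusted p 0.0851) did not pass. The strand setting of the counting is not given in the sources used here, so reads of the pair cannot be told apart.

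Nqo1 rose slightly in the cells with a reintroduced CTCF. It had 13.6, 15.3 and 16.4 CPM in EV untreated, 16.4 and 17.2 in EV auxin, 20.9, 19.2 and 19.3 in FL auxin and 18.7, 20.4 and 20.5 in H373R auxin. EV auxin sat at the upper edge of the untreated range, overlapping it on the TPM scale (39.9 to 42.9 against 32.9 to 40.2), and the other auxin libraries lay above it. The rise was 1.31-fold in FL auxin (log2 fold change 0.39 ± 0.081, SE, adjusted p 0.00145) and 1.32-fold in H373R auxin (0.40 ± 0.079, SE, adjusted p 0.000797). The EV auxin value of 0.16 ± 0.091 (SE) did not pass (adjusted p 0.251), with a 95% interval from -0.04 to 0.35, and became 0.07 without EV untreated replicate 1. The differences from EV auxin, 0.24 for both FL and H373R, missed the threshold (adjusted p 0.0722 and 0.0691), and both passed without EV untreated replicate 1 (0.25, adjusted p 0.0144, and 0.24, adjusted p 0.0152), whose spread enters the shared error.

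**Figure D2:**
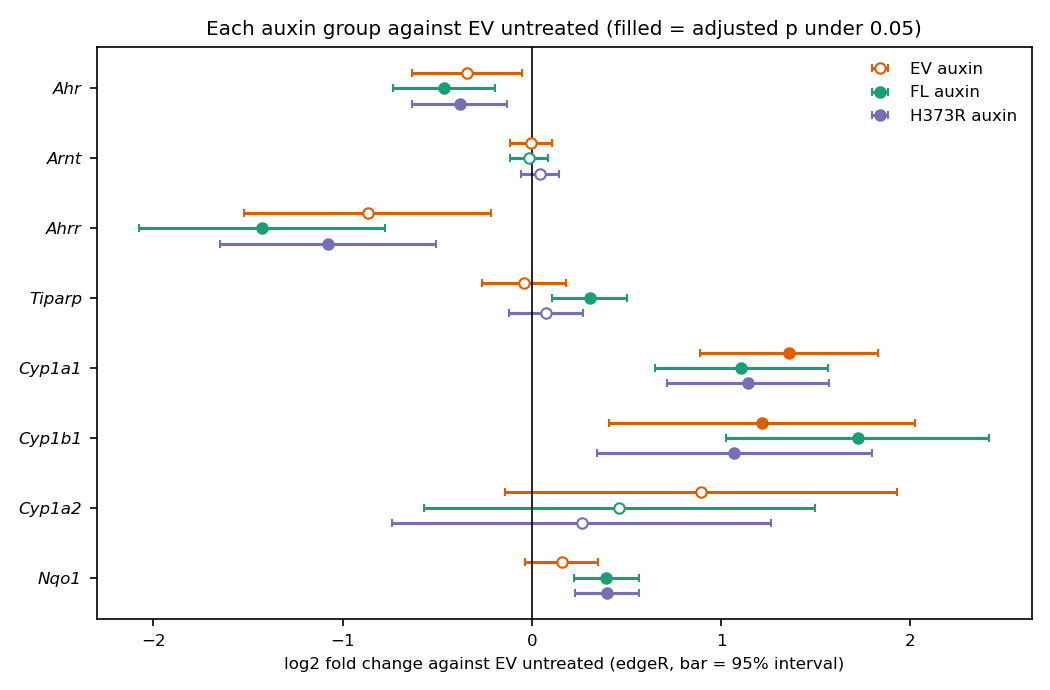
Log2 fold change of each gene in EV auxin, FL auxin and H373R auxin against EV untreated, from edgeR over 11 libraries, with 95% intervals; filled points have an adjusted p under 0.05. Cyp1a1 and Cyp1b1 are filled to the right of 0 in all 3 groups, and Arnt stays within -0.12 and 0.14.

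Counted together, 2 of the 8 genes were called in EV auxin against EV untreated, both higher, where 20.7% of all tested genes were called (11.3% higher and 9.4% lower). In FL auxin 6 were called, 4 higher and 2 lower, beside 36.9% of all tested genes (17.7% higher and 19.2% lower). In H373R auxin 5 were called, 3 higher and 2 lower, beside 44.4% (22.3% higher and 22.1% lower). The mean of the 3 auxin groups against EV untreated called 5, 3 higher and 2 lower, beside 41.3% (20.4% higher and 21% lower): Cyp1a1 at 1.20 ± 0.17 (SE, adjusted p 5.77e-05), Cyp1b1 at 1.34 ± 0.29 (SE), Nqo1 at 0.32 ± 0.067 (SE), Ahr at -0.40 ± 0.098 (SE) and Ahrr at -1.12 ± 0.22 (SE) on the log2 scale. The share called in EV auxin was close to that of all tested genes, and in the other comparisons with EV untreated a large part of all genes was called too, so the counts describe the members and no more. Only Cyp1a1 and Cyp1b1 were called in each of the 3 auxin groups in the same direction, as were 5.93% of tested genes in the higher and 5.54% in the lower direction. Unlike those of Cyp1a1, the Cyp1b1 calls in EV auxin and H373R auxin were lost under several alternative settings. The 3 comparisons share the EV untreated libraries. The median log2 fold change of the 8 genes was 0.08 in EV auxin, 0.35 in FL auxin and 0.17 in H373R auxin, beside medians of 0.01 or less over all tested genes.

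Among the auxin-treated groups themselves, few differences appeared. FL auxin against EV auxin called 1 of 8, Tiparp, beside 24.5% of tested genes (11.1% higher and 13.4% lower). By edgeR at an adjusted p under 0.05, H373R auxin against EV auxin called 0, beside 21.7% (10% higher and 11.7% lower). H373R auxin against FL auxin called 0 by edgeR as well, beside 5.96% (3.14% higher and 2.82% lower). At an unadjusted p under 0.05, Nqo1 alone passed in the H373R comparison with EV auxin, and Tiparp and Cyp1b1 in that with FL. Without EV untreated replicate 1 Tiparp was called between H373R and FL (-0.24, adjusted p 0.00243), and without FL auxin replicate 1 Cyp1b1 was. DESeq2 called 0 in each of those 2 comparisons. For Cyp1a1 the log2 difference was -0.25 ± 0.21 (SE) between FL and EV auxin, -0.22 ± 0.19 (SE) between H373R and EV auxin and 0.04 ± 0.19 (SE) between H373R and FL, where the 95% interval ran from -0.36 to 0.43.

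**Figure D3:**
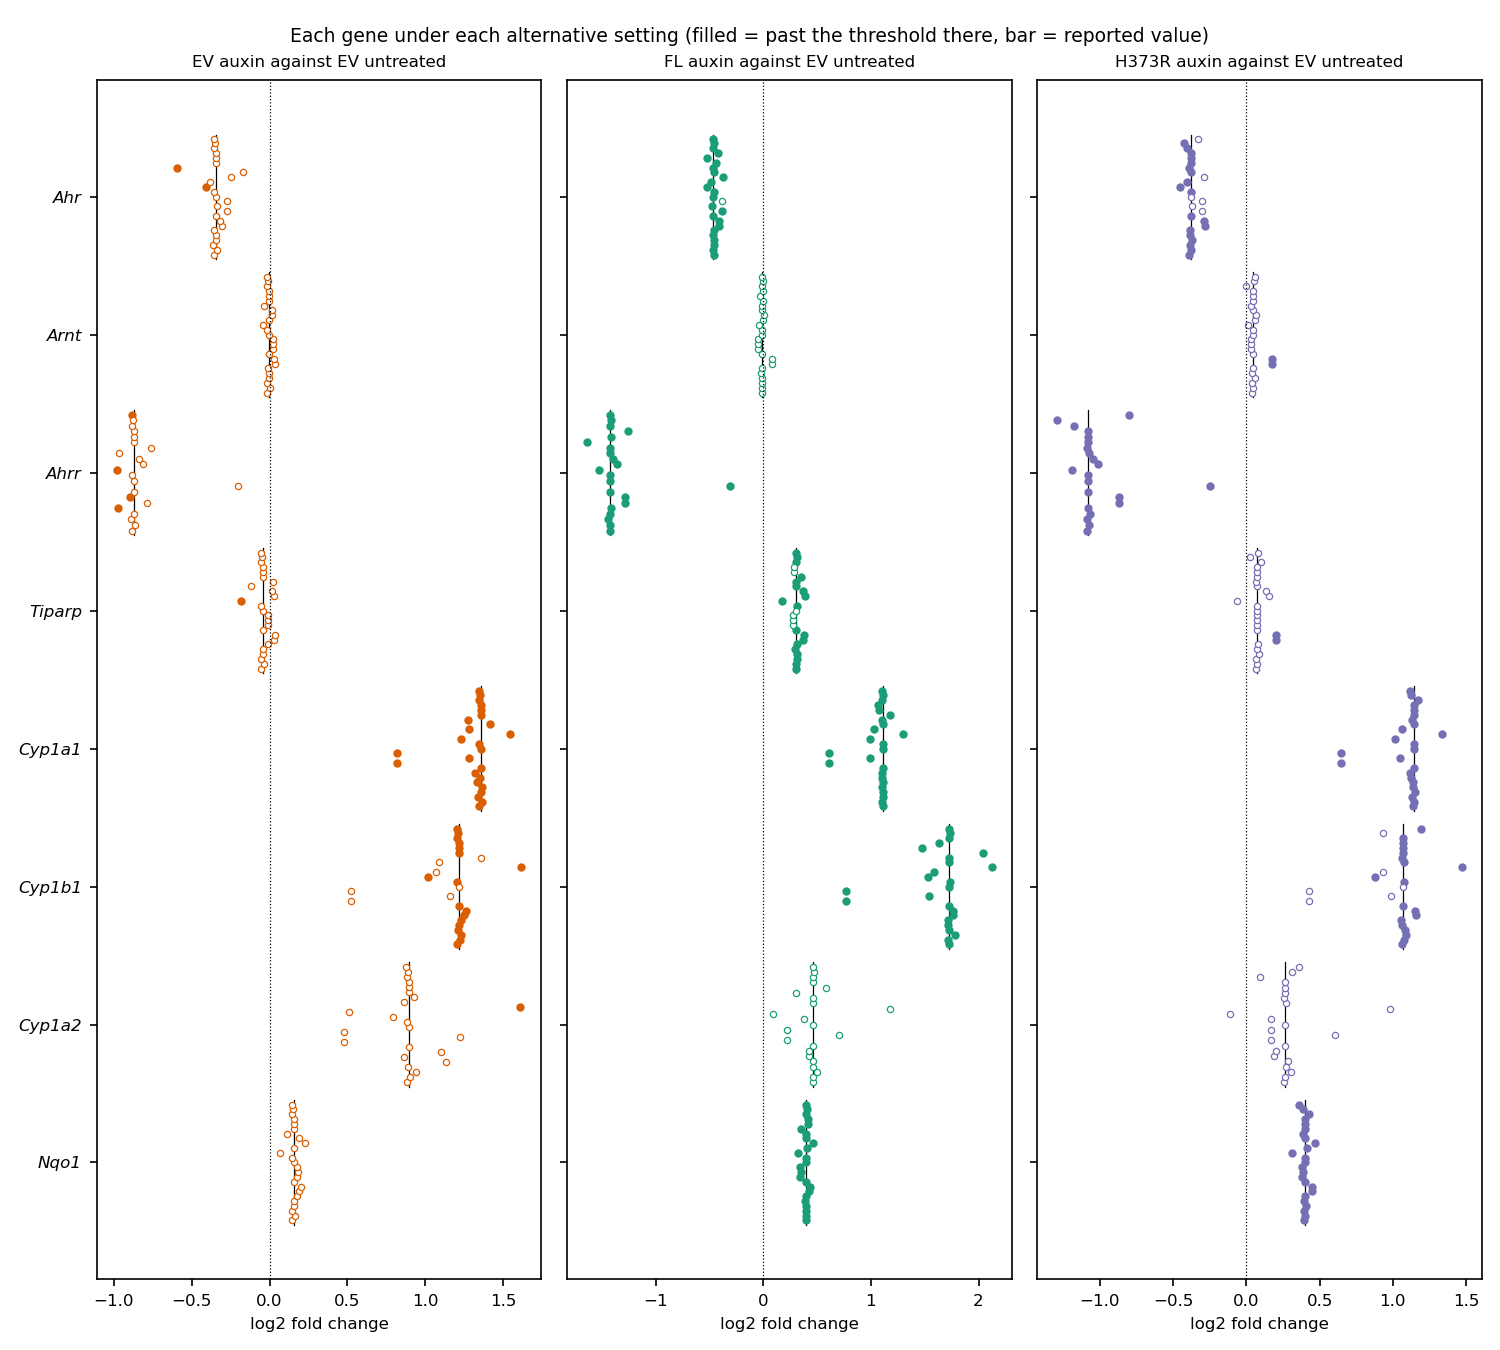
Log2 fold change of each gene against EV untreated under each alternative setting (points, filled where past the threshold under that setting) and as reported (bar). Every point of Cyp1a1 is filled and right of 0 in the 3 groups; the isolated points nearer 0 for Cyp1a1, Cyp1b1 and Ahrr come from the log2(TPM + 1) scale, which compresses low values.

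The other genes of the pathway were described from lists drawn up with earlier results of these data known. Each list's calls stand beside those of all tested genes, of which 20.7% were called in EV auxin, 36.9% in FL auxin and 44.4% in H373R auxin, and nothing is read as particular to a list. Of 12 genes of the cytosolic AHR complex and its coactivators, all tested, 2 were higher and 0 lower in EV auxin, 3 and 3 in FL auxin, and 3 and 4 in H373R auxin, with medians of 0.07, 0.06 and -0.04. Nrip1, a corepressor of nuclear receptors, rose in FL auxin (log2 fold change 0.59) and H373R auxin (0.27). Med1, a Mediator subunit, and the acetyltransferase gene Crebbp fell in the same 2 groups, Med1 by 0.47 and 0.55 and Crebbp by 0.26 and 0.33. Hsp90aa1, Hsp90ab1 and Ptges3, the chaperone core, passed in none of the 3.

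Of 26 further genes reported as AHR targets elsewhere, 15 had enough counts, and their directions were mixed: 3 higher and 2 lower in EV auxin, 4 and 4 in FL auxin and 6 and 6 in H373R auxin, with medians of -0.03, 0.05 and 0.25. Nedd9, a scaffold protein of cell adhesion, rose from 1.43 ± 0.110 CPM (SD, n = 3) to 3.65 ± 0.812 (SD, n = 2), 3.30 ± 0.147 (SD, n = 3) and 3.96 ± 0.398 (SD, n = 3) in EV, FL and H373R auxin, the largest log2 fold changes of this list at 1.31, 1.20 and 1.46. Cyp2s1, a P450 of extrahepatic tissues, rose as well, by 0.51, 0.49 and 0.83 on the log2 scale. Gstm1, a glutathione transferase, fell by 0.27, 0.37 and 0.27. Vav3, a signalling protein gene, fell by 1.02 in FL auxin and 1.08 in H373R auxin and had a value of -0.42 in EV auxin that did not pass (adjusted p 0.206).

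NRF2, encoded by Nfe2l2, drives antioxidant and detoxification genes and is the other known activator of Nqo1. Of 26 of its targets besides Nqo1, 25 were tested. In EV auxin 6 were higher and 3 lower, in FL auxin 9 and 4, and in H373R auxin 13 and 2, with medians of -0.02, 0.06 and 0.13. Srxn1, which repairs peroxiredoxins, rose by 0.57 ± 0.056 (SE), 0.69 ± 0.051 (SE) and 0.79 ± 0.050 (SE) on the log2 scale in EV, FL and H373R auxin (adjusted p at most 2.86e-06). Cbr3, a carbonyl reductase gene, rose by 0.60, 1.08 and 1.06, Gsta4, a glutathione transferase gene, by 0.34, 0.37 and 0.57, and Gclm, the modifier subunit of glutathione synthesis, by 0.49, 0.34 and 0.40. Hmox1, a classic NRF2 target, was at 0.01 in EV auxin (adjusted p 0.884), fell by 0.20 in FL auxin and stood at 0.07 in H373R auxin (adjusted p 0.236). Nfe2l2 itself rose in FL auxin (0.26 ± 0.051, SE) and H373R auxin (0.25 ± 0.051, SE), as did Maff and Bach1, whereas Mafg fell in both. None of the 7 NRF2 regulators listed was called in EV auxin by edgeR.

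**Figure D4:**
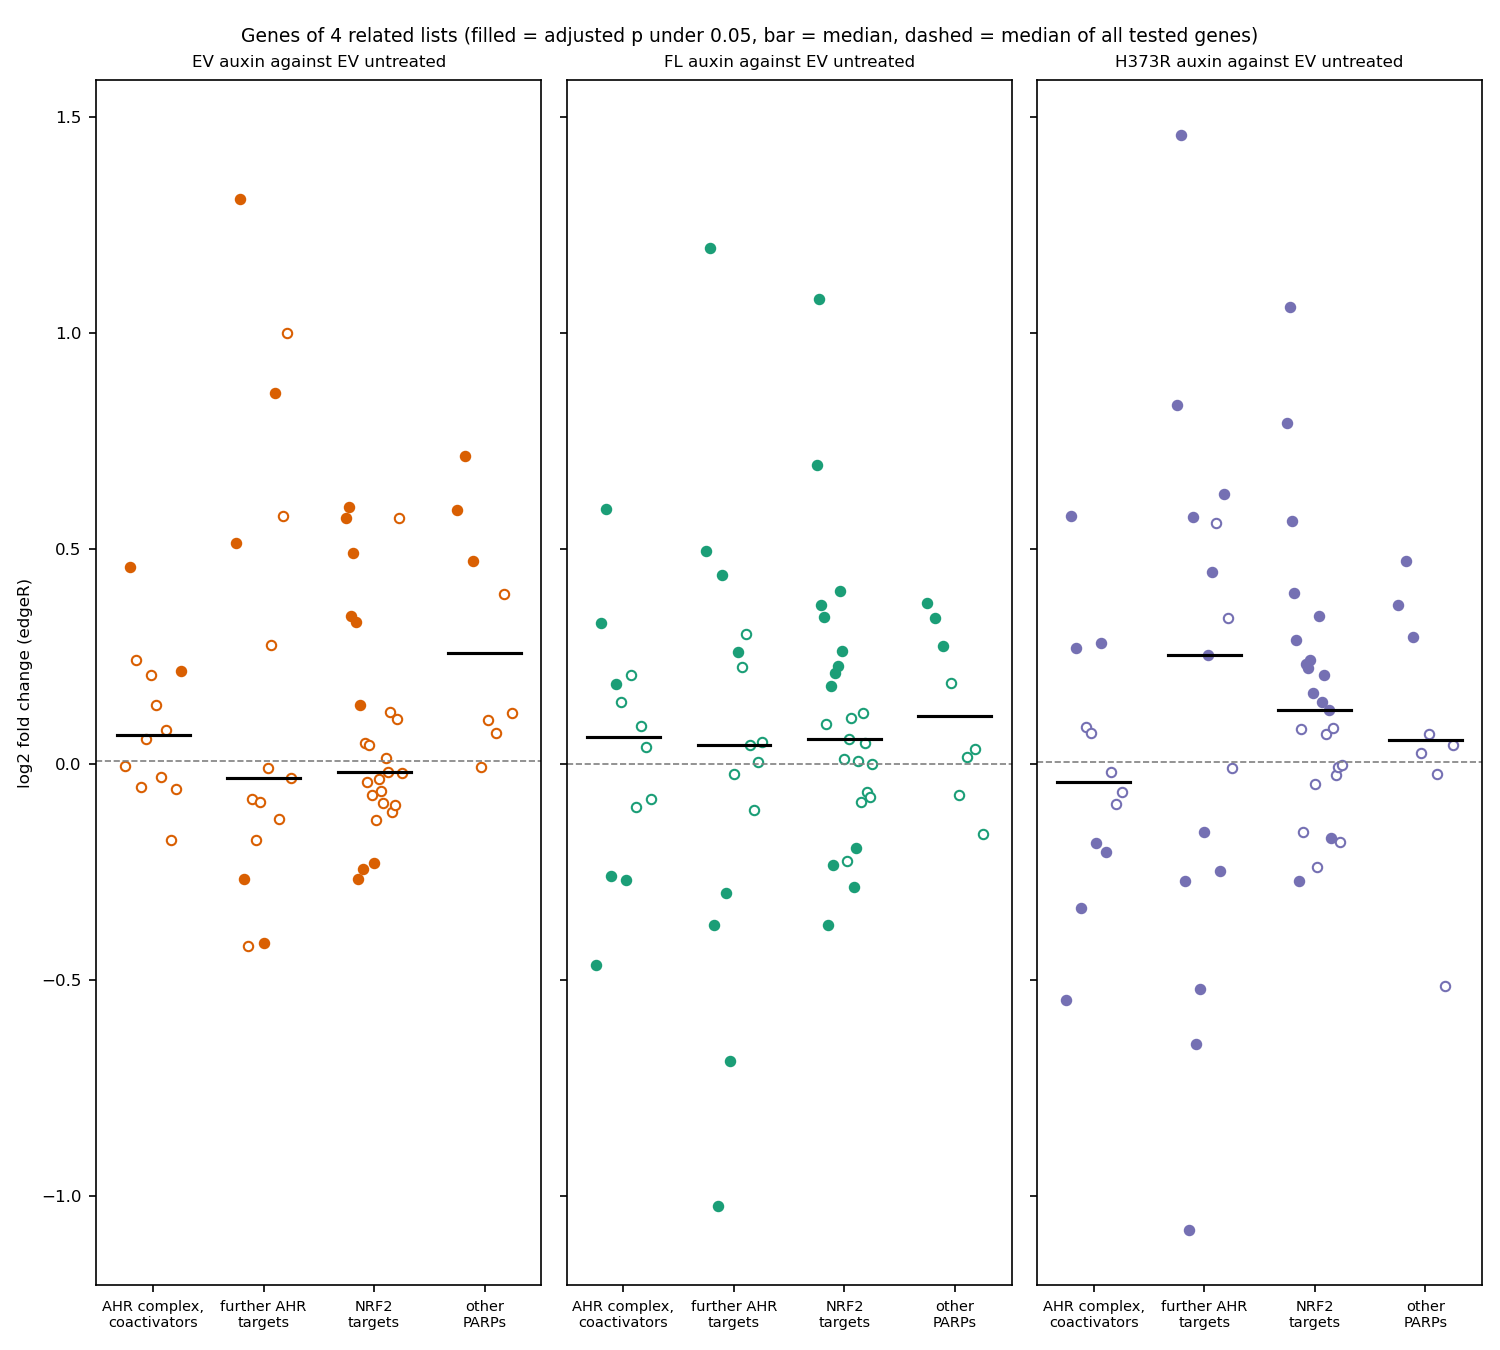
Log2 fold change against EV untreated of the tested genes of 4 lists, without the 8 genes above, in each auxin group; filled points have an adjusted p under 0.05, bars are list medians and the dashed line is the median of all tested genes. The further AHR targets spread to both sides of 0 in each group.

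Tiparp belongs to the PARP family, and of 8 other members that transfer single ADP-ribose units or are grouped with those that do, 3 were higher and 0 lower in each auxin group. They were Parp9, Parp12 and Parp14, which are also known as interferon-stimulated genes. Parp12 rose by 0.59 ± 0.054 (SE), 0.37 ± 0.050 (SE) and 0.37 ± 0.049 (SE) in EV, FL and H373R auxin. The remaining 5 passed in none of the 3 comparisons. In FL and H373R auxin 3 of 8 is close to the share of all tested genes called.

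Markers of other cell types differed between the groups as well. Beside the counts below, 11.3% of all tested genes were called higher and 9.4% lower in EV auxin. In FL auxin these shares were 17.7% and 19.2%, and in H373R auxin 22.3% and 22.1%. Of 10 primitive endoderm markers, 1 was higher and 1 lower in EV auxin, but all 10 were higher in FL auxin and all 10 in H373R auxin. Their summed level was 30.8 to 35.9 TPM in EV untreated, 35.2 to 36.6 in EV auxin, 102 to 105 in FL auxin and 70.0 to 77.3 in H373R auxin. Of 9 fibroblast markers 4 were tested, with 0 higher and 1 lower in EV auxin, 3 and 0 in FL auxin and 2 and 0 in H373R auxin. The sum over all 9 was 52.6 to 56.6 TPM in EV untreated and 48.5 to 53.7 in EV auxin. It was 64.7 to 73.6 in FL auxin and 63.7 to 68.4 in H373R auxin, with Lum or Postn listed at 0 in each group. The 6 trophoblast markers summed to 96.6 to 110 TPM in EV untreated and 133 to 168 TPM over the auxin groups. The 4 hepatocyte markers summed to at most 4.34 TPM, and Serpina1a was listed at 0 in every group. Beside the rise of Cyp1a1 and Cyp1b1 in EV auxin, the trophoblast sum was 133 to 147 TPM and 2 of the 5 tested trophoblast markers were called higher, the keratin genes Krt18 (0.58) and Krt7 (0.55). The other 3 were not called, and the median log2 fold change of the 5 was 0.07. Beside the rise of Nqo1 in FL and H373R auxin, the endoderm and fibroblast sums were above their untreated ranges in both groups. Of the 8 pluripotency markers, 1 was higher and 4 lower in EV auxin, 1 and 3 in FL auxin and 1 and 6 in H373R auxin. Nanog fell by 0.44 in FL auxin and 0.32 in H373R auxin, and Klf4 rose in all 3 groups. The part of such cells, or of a shift in the stem cells themselves, in any result on the 8 genes was not tested. In bulk RNA a smaller share of expressing cells and less RNA per cell cannot be told apart.

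Taken over all 8 members, the genes beside them on the chromosome gave no common pattern (GENCODE M21, GRCm38). Cyp1a1 (chr9:57687928-57703824, plus strand, whose GENCODE model begins upstream of the RefSeq start used above) lies between Cyp1a2 and Edc3, an mRNA decapping factor gene 4.72 kb away. Edc3 was at 0.05 in EV auxin (adjusted p 0.509) and rose by 0.14 in FL auxin and 0.13 in H373R auxin. Csk, a kinase gene 34.3 kb to the left, was at 0.10 in EV auxin (adjusted p 0.401) and rose by 0.48 in FL auxin and 0.43 in H373R auxin. Clk3, 46.8 kb to the right, rose by 0.23 in H373R auxin only. Ulk3, 80.7 kb to the left of Cyp1a2, rose by 0.37 in EV auxin only (adjusted p 0.0481). The called neighbours of Cyp1a1 and Cyp1a2 were thus all higher. Rmdn2, 8.35 kb from Cyp1b1 (chr17:79701537-79715061, minus strand), fell by 0.54 in FL auxin and 0.46 in H373R auxin, opposite to Cyp1b1. Farther off, Cdc42ep3 rose by 0.43 in EV auxin and 0.24 in H373R auxin, the direction of Cyp1b1. Atl2 fell by 0.20 in H373R auxin and Hnrnpll by 0.17 in EV auxin. Nfat5, the osmotic stress factor gene 8.71 kb from Nqo1 (chr8:107388225-107403206, minus strand), fell by 0.43, 1.00 and 1.08 in EV, FL and H373R auxin, again opposite to its neighbour. Hdac9, a histone deacetylase gene 581 kb from Ahr (chr12:35497974-35535038, minus strand), fell by 1.39 in FL auxin and 0.83 in H373R auxin. On the same side Snx13, 350 kb from Ahr, fell by 0.42 in FL auxin and 0.50 in H373R auxin. On the other side Tspan13 fell by 0.26 in EV auxin only, and Bzw2 passed in none of the 3. Exoc3, which starts or ends 2.39 kb from Ahrr (chr13:74211118-74292331, minus strand), stayed at 0.03, 0.02 and 0.01 and passed in none of the 3. Wwp2, to the right of Nqo1, fell by 0.23 in FL auxin. Beside Arnt, Gm4349 rose by 0.50 in FL auxin and Setdb1 by 0.13 in H373R auxin. Beside Tiparp, apart from the pseudogene described above, Ccnl1 fell by 0.46 in FL auxin and 0.53 in H373R auxin.

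Across the 11 libraries, genes of like pattern were sought among up to 12726 genes by Pearson's r on log2 CPM, as a description over libraries that share groups. Nearest to Cyp1a1 were Mettl25 (r = 0.97), the NRF2 target Gclm (r = 0.97) and Zcwpw2 (r = 0.96). Mettl25 had 13.9 ± 1.22 CPM (SD, n = 3) in EV untreated, 24.8 ± 0.726 (SD, n = 2) in EV auxin, 21.2 ± 0.953 (SD, n = 3) in FL auxin and 23.1 ± 0.879 (SD, n = 3) in H373R auxin. Nearest to Cyp1b1 were Itpripl2 (r = 0.99), Inpp5f (r = 0.95) and Zfp251 (r = 0.95), and nearest to Ahrr were Plxdc2 (r = 0.98), Gstm2 (r = 0.95) and Gmds (r = 0.95). Ahr was most like Hmgcll1, Ppm1h and Sec23b (r = 0.91 each), Tiparp like Klhl7 (r = 0.99) and Nqo1 like Acadl (r = 0.96). Among the members themselves Cyp1a1 and Cyp1b1 had r = 0.74, Ahr and Ahrr r = 0.78, and Ahr and Cyp1a1 r = -0.74.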

How the data were processed

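RNA was column-purified and sequenced as directional libraries, per the labels' protocols. The authors deposited raw counts per gene symbol and TPM values for the same 11 libraries. featureCounts, Subread 2.0.3 and DESeq2 and the builds mm10 and GRCm38 are named, per the submitters' processing notes. The aligner, annotation and strand setting are not given in the sources used here.

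edgeR 4.0.16 (R 4.3.3) was run on the counts with TMM scaling, filterByExpr (16420 genes, at least 99.9% of each library's counts), a group-means model over 11 libraries, quasi-likelihood F tests and Benjamini-Hochberg adjustment over all tested genes at 0.05. 7 contrasts were fitted. Group values are TMM-scaled CPM with SD. The labels give only replicate numbers, so these were not used as a block in the main fit, and a block fit was run as an alternative. Same-numbered libraries deviated together in 3 of 15 pairs (r over 0.1). Their highest r was 0.28, beside 0.13 among libraries of different number, and 7 of 11 libraries correlated best with one of their own number. Alternatives included limma 3.58.1 on log2(TPM + 1) and DESeq2 1.42.0. The scripts were tested on simulated counts.

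The members and lists were chosen with earlier results of these data known. Named genes are the 8 members, up to 4 genes per list with the smallest adjusted p in the mean auxin contrast, the 2 nearest tested genes on each side and the 3 most alike. Hmox1, Crebbp, the chaperones and the genes named as not changed were chosen after their values were seen. Counts limit precision: intervals cover the model's error only. A further gene of the lists, counted in them, is not reported here.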

Additional observations from a re-analysis of the deposited data

Results flagged for a closer look

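Tiparp differed between auxin-treated groups in the main fit: its level in FL auxin exceeded that in EV auxin by 0.35 ± 0.10 (SE) on the log2 scale (edgeR adjusted p 0.0246). By that test its difference from EV untreated was not the same in the 2 groups. The call was lost by limma in the 3 fits on log2(TPM) and at an adjusted p under 0.01. All 3 FL libraries (109 to 120 CPM) lay above both EV auxin libraries (86.5 and 96.1 CPM). Over the settings that leave out 1 library the value ran from 0.28 to 0.43, and the call was lost without EV auxin replicate 1, EV auxin replicate 2, FL auxin replicate 2 or FL auxin replicate 3.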

How the results depend on the processing

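Under 25 alternatives (24 for the mean contrast, fewer where a gene was not tested) Cyp1a1 kept its direction and its call in each of the 3 auxin groups against EV untreated, with log2 fold changes of 0.82 to 1.54, 0.61 to 1.30 and 0.65 to 1.34. Over all 56 values of a gene in a comparison, 1232 of 1357 recomputed values kept direction and side of the threshold, 35 lost the call, 36 gained one and 54 changed sign. Of the scarce genes, Ahrr was absent from both log2(TPM) fits with a filter, as it failed the TPM minimum of 1 in 2 libraries. Ahrr and Cyp1a2 were absent from the fit with at least 10 counts in every library. In some comparisons either gene lacked a value under a further setting. Leaving out an EV auxin library leaves 1, which is then assumed to vary like the other groups.

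The number of the 8 genes called in EV auxin against EV untreated was 2 and became 1 on both log2(TPM) scales, 1 without the TPM filter and 1 at an adjusted p under 0.01. Leaving out 1 library gave 1 to 5, the highest without EV untreated replicate 1 and the lowest without EV untreated replicate 2 or EV auxin replicate 1. In H373R auxin against EV untreated 5 became 2 on both log2(TPM) scales, 3 without the TPM filter and 3 at an adjusted p under 0.01, and 7 with GC and length trends removed, with or without the block, where Arnt and Tiparp were added. The mean contrast went from 5 to 7 in the same fits. In FL auxin against EV auxin 1 became 2 with GC content and length trends removed, 2 with the replicate block as well, 2 with only the libraries compared, 0 in the 3 TPM fits and 0 at 0.01, with 0 to 2 over the left-out libraries. In H373R auxin against EV auxin 0 became 3 with GC and length trends removed, 3 with the block as well and 1 with only the libraries compared (0 to 1 over left-out libraries). In H373R auxin against FL auxin 0 became 2 with no filter, 1 with GC and length trends removed, 1 with the block as well and 1 with only the libraries compared (0 to 1). The causes were not tested.

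Signs changed only for values that were not called. Arnt in EV auxin against EV untreated became 0.0028 with upper quartile scaling, 0.037 with GC and length trends removed, 0.030 with the block as well, and 0.021 in the 3 TPM fits (-0.042 to 0.018 over left-out libraries). In FL auxin it became 0.077 in both GC fits (-0.039 to 0.0054), in H373R auxin leaving out a library gave -6.0e-06 to 0.063 and in the mean contrast -0.024 to 0.028. In FL against EV auxin it became 0.0062 with RLE scaling, 0.0090 with DESeq2, 0.040 and 0.046 in the GC fits and 5.4e-04 with only the libraries compared (-0.029 to 0.022). Tiparp in EV auxin against EV untreated became 0.026 and 0.034 in the GC fits (-0.19 to 0.026 over left-out libraries), and leaving out a library gave -0.065 to 0.15 in H373R auxin and -0.024 to 0.19 in the mean contrast. Ahr in H373R against EV auxin became 0.019 and 0.029 in the GC fits (-0.21 to 0.21), and -0.29 to 0.13 in FL against EV auxin over left-out libraries. Ahrr in H373R against EV auxin became 0.024 with the block and GC trends removed (-0.42 to 0.079). Nqo1 in H373R against FL became -0.0057 with RLE scaling, -0.0061 with DESeq2 and -4.5e-04 with the block (-0.031 to 0.047). Leaving out a library gave -0.11 to 0.98 for Cyp1a2 in H373R auxin against EV untreated and -0.036 to 0.075 for Cyp1a1 in H373R against FL.

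With the replicate number as a block, 3, 6, 5, 5, 1, 0 and 0 members were called in EV, FL and H373R auxin and their mean against EV untreated, each reintroduction against EV auxin and one against the other, in this order, instead of 2, 6, 5, 5, 1, 0 and 0; Ahrr in EV auxin was the addition. Correlations of deviations were -0.087 to 0.28 for libraries with the same number and -0.20 to 0.13 for others, and 7 of 11 libraries correlated best with one of their own number. The counts of all genes called also moved. EV auxin against EV untreated gave 3392, with 1569 without EV auxin replicate 2 and 5444 without EV untreated replicate 1. FL auxin against EV untreated gave 6052, and 3980 at 0.01. FL auxin against EV auxin gave 4016 (1879 to 5800), H373R auxin against EV auxin 3570 (1502 to 5909) and H373R against FL 979 (436 to 2323). On log2(TPM + 1) the share of higher calls was 28.1% for FL against EV auxin, beside 45.2% on counts.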

Other observations

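Other transcription factors of the bHLH-PAS family changed in both directions. Of 10 tested, beside 20.7%, 36.9% and 44.4% of all tested genes called in EV, FL and H373R auxin, 2 were higher and 1 lower in EV auxin, 3 and 3 in FL auxin and 3 and 2 in H373R auxin. Sim2, a factor of the developing midline, rose from 0.131 ± 0.0271 CPM (SD, n = 3) to 0.918 ± 0.169 (SD, n = 2), 0.579 ± 0.0604 (SD, n = 3) and 1.41 ± 0.336 (SD, n = 3) in EV, FL and H373R auxin. Its untreated mean was below that of Cyp1a2 (0.276 CPM), so the rise starts near the floor of counting. Arnt2, the close relative of Arnt, fell by 0.29, 0.40 and 0.52 on the log2 scale in the same order. Clock, of the circadian pair, fell by 0.56 in FL auxin and 0.75 in H373R auxin, and Hif3a rose there by 0.36 and 0.53. Hif1a passed in none of the 3 comparisons.

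Enzymes of tryptophan use, which make natural AHR ligands, were tested for 9 of 15 genes. Of these, 1 was higher and 0 lower in EV auxin, 2 and 1 in FL auxin, and 4 and 1 in H373R auxin. Of all tested genes, 20.7%, 36.9% and 44.4% were called in these groups, and nothing is read as particular to this list or the next. Afmid, the kynurenine formamidase gene, rose by 0.59, 0.49 and 0.91 in EV, FL and H373R auxin, and Ddc, the aromatic amino acid decarboxylase gene, fell by 0.63 in FL auxin and 0.45 in H373R auxin. Of 7 tested genes of other xenobiotic receptors and P450 partners, beside the same shares, none was called in EV auxin by edgeR. In FL auxin 3 were higher and 1 lower, and in H373R auxin 3 were higher. Cyp26a1, the P450 that clears retinoic acid, rose by 2.15 in FL auxin and 1.91 in H373R auxin and stood at 0.69 in EV auxin (adjusted p 0.159).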
